A study of Mus musculus with 8 samples.

Results

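Genes of the Notch pathway and of the presomitic mesoderm were examined in mouse embryos at embryonic day 7.5. The 10 genes were chosen by name: the ligands Dll1 and Dll3, the receptor Notch1, the glycosyltransferase Lfng, the repressors Hes1 and Hes7, and the mesoderm factors Mesp1, Msgn1, Tbx6 and Meox1. Every probe set that names 1 of these genes alone was taken, which gave 9 of the 12422 probe sets on the U74Av2 array and 12 of the 45037 on the MOE430v2 array, controls apart. Dll3, Hes7 and Msgn1 had a probe set on MOE430v2 only. The genes were proposed with earlier results of these data known. A Dll1, a Tbx6 and a Meox1 probe set stand in a list of reduced probe sets that the study drew from the same U74Av2 arrays. Their direction there, or on MOE430v2 arrays of the same extracts, is thus not independent evidence.

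The study asked which genes depend on Foxa2, a forkhead transcription factor needed for the node, in the gastrula. RNA came from 2 Foxa2 null pools, of 53 and 48 embryos, and from 2 wild-type pools, of 53 and 50 embryos, and each extract was put on 1 array of each type. Foxa2 null embryos were grown from Foxa2 null embryonic stem cells aggregated with wild-type tetraploid hosts, so that the extra-embryonic tissue, including the visceral endoderm left on the dissected embryos, came from the host. Wild-type embryos were ICR from timed matings. The labels of the MOE430v2 mutant arrays name ICR as well, while those of the U74Av2 mutant arrays name no strain. Genotype therefore cannot be told apart from the way the embryos were made, or from any difference in strain. The extra-embryonic region was cut away, and embryos ranged between mid-streak and head-fold stages. By the study's staging table, wild-type pool 2 held fewer head-fold embryos than the other pools, and the Foxa2 null pools were staged alike. Each extract was measured again on the other array type, so n is 2 pools per genotype throughout.

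Notch receptors are bound by Delta and Jagged ligands on neighbouring cells. Cleavage then frees an intracellular domain that joins the DNA-binding protein Rbpj and turns on Hes and Hey repressors. In the presomitic mesoderm, the tissue beside the midline that buds off somites, Hes7 and Lfng oscillate and set the pace of segmentation. Tbx6 and Msgn1 commit streak cells to this tissue, Mesp1 marks the earliest mesoderm to leave the streak, and Meox1 marks paraxial mesoderm as it forms somites. At this embryonic day the first somites have not yet formed or are only about to form.

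As a check of the labels, Foxa2 itself had a log2 signal on MOE430v2 of 8.96 and 9.06 in the Foxa2 null pools, against 9.62 and 10.17 in the wild-type pools. On U74Av2 it was 6.39 and 6.55 in the Foxa2 null pools, against 7.37 and 8.08 in the wild-type pools. The groups did not overlap, and whether the probes lie in the deleted part of the gene is not given in the sources used here. Array medians of the signal were 48.15 to 52.8 on U74Av2 and 155.3 to 165 on MOE430v2. Of 8 epiblast markers, such as Pou5f1, all 8 passed the filter on dim probe sets on MOE430v2. Of 9 node and notochord markers, several of them chosen by the study on these samples, 8 passed, and all 8 were below 0 with a median log2 difference of -1.44.

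Over the 10 genes, Hes7 and Dll1 fell in the Foxa2 null pools on MOE430v2, and Meox1 had the lowest difference there, at -2.41 on the log2 scale. Mesp1 alone among the genes lay above 0 on both array types, and Hes1 lay within 0.12 of 0 on both. On MOE430v2, 2 of the 11 tested member probe sets passed an adjusted p of 0.05 with a lower signal (limma with Benjamini-Hochberg over all 31526 probe sets), against 0.244% of all probe sets, and 0 passed with a higher signal (0.19% of all). Below 0 lay 9 of the 11 (50.1% of all), and 6 were at least 1.5-fold lower (9.93%). The Foxa2 null signal was below the wild-type signal in all 4 comparisons of an array with an array for 7 of the 11, against 21.8% of all probe sets. At an unadjusted p under 0.05, 7 were lower, against 6.07%. The median log2 difference of the 11 was -0.59, where that of all probe sets tested was -0.000718. On U74Av2, 0 of the 8 member probe sets tested passed an adjusted p under 0.05 by limma, against 0.173% of all probe sets lower. There 4 were lower in all 4 comparisons (21.4% of all 8695 probe sets tested) and 3 were lower at an unadjusted p under 0.05 (5.01%), and the median was -0.46, against -0.0179 for all. Below 0 lay 5 of the 8 (52.4% of all), and 3 were at least 1.5-fold lower (6.76%). Of the member probe sets, 2 were too dim to be tested. In whole-embryo RNA, fewer cells of a type and less RNA per cell cannot be told apart.

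**Figure D1:**
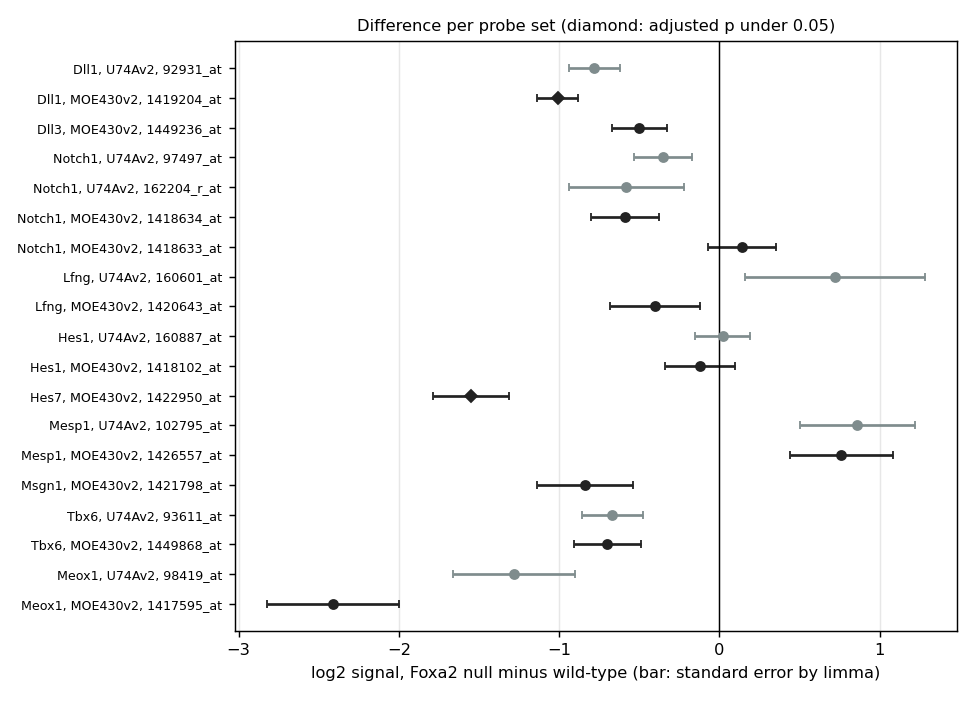
Log2 difference, Foxa2 null minus wild-type (horizontal axis), for each tested member probe set (vertical axis), U74Av2 in grey and MOE430v2 in black; bars are limma standard errors, n = 2 pools per genotype, and diamonds mark an adjusted p under 0.05. The diamonds are Dll1 at -1.01 and Hes7 at -1.55 on MOE430v2, Meox1 lies lowest at -2.41, and both Mesp1 probe sets lie above 0.

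Dll1 (chr17:15367354-15376932, GRCm38.p6) encodes the main activating Notch ligand of the presomitic mesoderm. Its log2 signal on MOE430v2 was 10.60 and 10.85 in the Foxa2 null pools, against 11.82 and 11.66 in the wild-type pools. Both Foxa2 null pools lay well below both wild-type pools. The difference was -1.01 (standard error 0.13, adjusted p = 0.0174 by limma), a signal 2.02-fold lower. On U74Av2 Dll1 was at 7.54 and 7.68 in the Foxa2 null pools, against 8.41 and 8.37 in the wild-type pools, again without overlap, with a difference of -0.78 (standard error 0.16, adjusted p = 0.135). The other U74Av2 probe set of Dll1 was among the dimmest on the array, where the Foxa2 null pools read 1.5 and 1 and the wild-type pools 2.9 and 3.3 in linear signal, and was not tested. Dll1 no longer passed on MOE430v2 when wild-type pool 1 (adjusted p = 0.0978) or pool 2 (0.0776) was left out, and likewise with no filter on dim probe sets (0.0546) and without the intensity trend of the variance (0.455), while the difference stayed between -1.14 and -0.89 as each pool was left out.

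Dll3 (chr7:28293555-28301785) encodes a divergent Delta protein that acts within the cell and is known for opposing Notch signalling, and its loss in the mouse disturbs segmentation. Its log2 signal was 10.11 and 10.42 in the Foxa2 null pools, against 10.58 and 10.95 in the wild-type pools. The groups did not overlap, but the higher Foxa2 null pool lay near the lower wild-type pool. The difference was -0.50 (standard error 0.17, adjusted p = 0.289 by limma) and did not pass the threshold.

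Notch1 (chr2:26457902-26503822), the receptor most studied in somite formation, was measured by 4 probe sets that did not give a single direction. The brightest on MOE430v2 was at 9.85 and 9.54 in the Foxa2 null pools, against 10.58 and 10 in the wild-type pools, a log2 difference of -0.59 (standard error 0.21, adjusted p = 0.312 by limma). The other MOE430v2 probe set was at 8.88 and 9.28 in the Foxa2 null pools, against 8.87 and 9.01 in the wild-type pools, so that the groups overlapped, with a difference of 0.14 (standard error 0.21). Where along the transcript each lies is not given in the sources used here. On U74Av2 the brighter probe set was at 7.35 and 7.56 in the Foxa2 null pools, against 7.90 and 7.70 in the wild-type pools, without overlap, and its difference was -0.35 (standard error 0.18). The dimmer U74Av2 probe set was at 5.61 and 4.73 in the Foxa2 null pools, against 5.93 and 5.57 in the wild-type pools (difference -0.58, standard error 0.36). None of the 4 passed the threshold. As each pool was left out, the brightest MOE430v2 probe set ranged between -0.89 and -0.30, lowest with wild-type pool 2 and nearest 0 with wild-type pool 1 left out. The dimmer U74Av2 probe set ranged between -1.02, with Foxa2 null pool 1 left out, and -0.15, with Foxa2 null pool 2 left out.

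Lfng (chr5:140607341-140615545), a Fringe enzyme that adds sugars to Notch and oscillates with the segmentation clock, followed the pool number more than the genotype. Its log2 signal on MOE430v2 was 8.83 and 9.49 in the Foxa2 null pools, against 9.22 and 9.91 in the wild-type pools, with overlap. The difference was -0.40 (standard error 0.28, adjusted p = 0.618 by limma). On U74Av2 Lfng was at 5.02 and 5.69 in the Foxa2 null pools, against 3.79 and 5.49 in the wild-type pools, and the difference was 0.72 (standard error 0.56, adjusted p = 0.743). That value was -0.14 without wild-type pool 1, so the opposite signs of the array types rest on 1 dim array value. Another Lfng probe set on MOE430v2 was too dim to be tested, where the Foxa2 null pools read 24.7 and 9.15 and the wild-type pools 37.8 and 8.79 in linear signal.

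Hes7 (chr11:69118906-69124054), the repressor at the core of the mouse segmentation clock, stood in contrast to Hes1 (chr16:30065357-30067796), its relative used in many tissues. The log2 signal of Hes7 was 7.72 and 7.53 in the Foxa2 null pools, against 9.07 and 9.28 in the wild-type pools. Each genotype was tight, and the gap between the groups was several times the spread within them. Hes7 fell by 1.55 on the log2 scale (standard error 0.24, adjusted p = 0.032 by limma), a signal 2.94-fold lower. It no longer passed when wild-type pool 1 (adjusted p = 0.107) or pool 2 (0.181) was left out, and likewise with no filter on dim probe sets (0.0887) and without the intensity trend (0.449), and as each pool was left out the difference stayed between -1.66 and -1.45. Hes1 was at 9.47 and 9.69 in the Foxa2 null pools, against 10 and 9.40 in the wild-type pools on MOE430v2, and the groups overlapped. Its difference there was -0.12 (standard error 0.22, adjusted p = 0.87). On U74Av2 Hes1 was at 7.70 and 7.57 in the Foxa2 null pools, against 7.62 and 7.61 in the wild-type pools, a difference of 0.02 (standard error 0.17, adjusted p = 0.985). Whether Hes7 and Hes1 differ in response was not tested.

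Promoter sequence was available for 8 of the 10 genes in a RefSeq table of build GRCm38.p6, all except Hes1 and Meox1. The 250 bases before each listed start site were searched on both strands for GTGGGAA (the core bound by Rbpj), CACGTG (the E-box), CACNAG (the N-box of Hes proteins), GGTGTGA (a T-box site), CTTTGAT (Tcf and Lef) and TGTTTAC (forkhead). The Rbpj core was found in 3 of the 8 genes, Hes7, Lfng and Msgn1, and in 5.42% of the 32851 promoters of the table. CTTTGAT was found in 2, Mesp1 and Msgn1, and in 3.21% of all. The E-box was found in Lfng alone (6.02% of all) and the N-box in 5 (36.7% of all), and the T-box and forkhead letters in 0 (3.33% and 3.17% of all). The windows below are shown because they hold the Rbpj or Tcf letters and belong to genes that differ in their values: Hes7 passed the threshold, Msgn1 did not, Lfng overlapped between genotypes and Mesp1 lay above 0. Capitals mark the Rbpj, E-box and Tcf letters on either strand. The E-box and the Rbpj core of Lfng overlap by 3 letters. The Hes7 window lies inside the gene span given above, before an internal listed start site. A match is a description of letters and not of binding.
Hes7, chr11:69120203-69120452, plus strand: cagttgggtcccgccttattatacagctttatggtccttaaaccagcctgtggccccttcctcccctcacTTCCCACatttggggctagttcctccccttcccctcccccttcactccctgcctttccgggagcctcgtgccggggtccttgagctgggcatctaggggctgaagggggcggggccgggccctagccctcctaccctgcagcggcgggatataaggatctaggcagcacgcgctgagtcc
Msgn1, chr12:11208949-11209198, minus strand: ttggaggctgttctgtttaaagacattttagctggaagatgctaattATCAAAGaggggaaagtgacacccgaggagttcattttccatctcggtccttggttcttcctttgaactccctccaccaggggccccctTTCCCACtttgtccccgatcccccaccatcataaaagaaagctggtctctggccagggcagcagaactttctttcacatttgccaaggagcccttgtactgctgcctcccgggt
Lfng, chr5:140607091-140607340, plus strand: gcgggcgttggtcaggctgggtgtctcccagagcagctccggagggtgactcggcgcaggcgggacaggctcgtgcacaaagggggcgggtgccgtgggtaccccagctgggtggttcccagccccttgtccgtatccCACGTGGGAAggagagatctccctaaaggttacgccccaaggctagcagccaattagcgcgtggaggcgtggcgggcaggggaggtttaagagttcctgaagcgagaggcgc
Mesp1, chr7:79793591-79793840, minus strand: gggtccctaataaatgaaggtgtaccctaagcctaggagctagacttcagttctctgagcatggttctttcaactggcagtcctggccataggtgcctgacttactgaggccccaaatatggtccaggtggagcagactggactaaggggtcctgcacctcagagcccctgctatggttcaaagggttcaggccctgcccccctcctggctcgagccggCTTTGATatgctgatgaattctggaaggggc

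Tbx6 (chr7:126781483-126785548) encodes a T-box factor that sets paraxial mesoderm apart from neural tissue and turns on Dll1. Its log2 signal on MOE430v2 was 9.55 and 10.21 in the Foxa2 null pools, against 10.58 in each of the wild-type pools. Both Foxa2 null pools were lower, and they lay farther from each other (0.66) than Foxa2 null pool 2 lay from the wild-type pools. The difference was -0.70 (standard error 0.21, adjusted p = 0.228 by limma), and it ranged between -1.03 and -0.36 as each pool was left out. The value of -1.03 was that without Foxa2 null pool 2, a fit that holds no spread between Foxa2 null pools. On U74Av2 Tbx6 was at 7.33 and 7.74 in the Foxa2 null pools, against 8.25 and 8.16 in the wild-type pools, a difference of -0.67 (standard error 0.19, adjusted p = 0.247). Neither array type passed the threshold with all pools.

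Msgn1 (chr12:11208382-11208948), a helix-loop-helix factor that acts with Tbx6 in the presomitic mesoderm, was at 8.03 and 8.85 in the Foxa2 null pools, against 9.05 and 9.49 in the wild-type pools. The groups did not overlap, although Foxa2 null pool 2 came close to wild-type pool 1. The difference was -0.84 (standard error 0.30, adjusted p = 0.307 by limma), and it ranged between -1.25, with Foxa2 null pool 2 left out, and -0.42, with Foxa2 null pool 1 left out.

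Meox1 (chr11:101877510-101894354) encodes a homeobox factor of forming somites. Its log2 signal on MOE430v2 was 7.30 and 6.41 in the Foxa2 null pools, against 9.78 and 8.75 in the wild-type pools. Within each genotype the pools lay about 1 log2 unit apart, and the gap between genotypes was larger. The difference was -2.41 (standard error 0.41, adjusted p = 0.0509 by limma), a signal 5.31-fold lower, and 0.133% of all probe sets tested had a difference as low or lower. Meox1 passed the threshold in 5 of 12 alternatives, and its adjusted p reached 0.459, without the intensity trend. Those that passed were an offset of 16 added before log2 (0.0441), the lowest 50% of probe sets left out (0.0244), the pool number as a block, and Foxa2 null pool 1 (0.00921) or pool 2 (0.045) left out. The last pair of fits holds no spread between Foxa2 null pools, and limma draws the variance there toward a trend over all probe sets. It did not pass with either wild-type pool left out, with no filter, or under the other normalizations, and the difference ranged between -2.92 and -1.90. On U74Av2 Meox1 was at 5.13 and 4.20 in the Foxa2 null pools, against 6.09 and 5.79 in the wild-type pools, a difference of -1.28 (standard error 0.38, adjusted p = 0.258).

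Mesp1 (chr7:79792241-79793590), a helix-loop-helix factor of the earliest cranial and cardiac mesoderm, went against the other mesoderm factors. Its log2 signal on MOE430v2 was 10.29 and 11.23 in the Foxa2 null pools, against 9.60 and 10.40 in the wild-type pools, so that Foxa2 null pool 1 lay just below wild-type pool 2 and the groups overlapped. The difference was 0.76 (standard error 0.32, adjusted p = 0.389 by limma), a signal 1.69-fold higher. On U74Av2 the Foxa2 null pools were at 7.71 and 8.73 and the wild-type pools at 6.93 and 7.80, a difference of 0.86 (standard error 0.36, adjusted p = 0.471). The call was not reached on either array type. As each pool was left out the difference lay between 0.29 and 1.23 on MOE430v2, and between 0.35 and 1.37 on U74Av2.

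Markers of the epiblast and of nascent mesoderm, where Mesp1 begins, are given beside it. Of 8 epiblast markers tested on MOE430v2, 7 were above 0 (median 0.57) and 5 were higher at an unadjusted p under 0.05 (6.03% of all probe sets), while 0 passed the adjusted threshold by limma. Gene by gene, 5 of the 8 were higher in all 4 comparisons (21.5% of all). Their summed signal, which the brightest genes weigh most, was 28730 and 36840 in the Foxa2 null pools. It was 25080 and 30970 in the wild-type pools, with overlap. Of 8 nascent mesoderm markers 5 were tested there, 4 were above 0 and 1 below (median 0.19), and 0 passed the adjusted threshold. Their summed signal was 2933 and 5276 in the Foxa2 null pools, against 2006 and 3367 in the wild-type pools, again with overlap. The highest of the 5 was Eomes, a T-box factor known to act upstream of Mesp1, at 10 and 11.06 in the Foxa2 null pools, against 8.52 and 9.87 in the wild-type pools (difference 1.34, standard error 0.43, adjusted p = 0.259). The differences of the others were 0.87 for Lhx1, 0.19 for Fgf8, 0.13 for Evx1 and 0.00 for Mixl1. On U74Av2 5 of the list were tested, 4 above 0 and 1 below, with Eomes at 1.92, Lhx1 at 0.08 and Fgf8 at -0.69. T, also in this list, had no probe set under that symbol here. The study reported T as reduced on both array types and by quantitative PCR. In both genotypes pool 2 held more Eomes and more Mesp1 signal than pool 1. Of 13 visceral endoderm markers tested, 0 passed the adjusted threshold and 6 were higher at an unadjusted p under 0.05 (6.03% of all), and the differences ran between 0.00 and 0.71. On U74Av2 9 of 11 were above 0 and 2 below, with Afp at -0.48 there and 0.43 on MOE430v2. On MOE430v2 0 of the 13 lay below 0 (50.1% of all), and 6 were higher in all 4 comparisons (21.5% of all). The summed signal there was 91180 and 71330 in the Foxa2 null pools, against 65970 and 68680 in the wild-type pools. These groups did not overlap, and Foxa2 null pool 1 was highest. The study held that mutant embryos keep their host visceral endoderm where wild-type embryos displace it, and so look enriched for its markers. The labels call the tissue epiblast, and visceral endoderm markers were present in every pool. The part of these cell types in the member values was not tested.

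**Figure D2:**
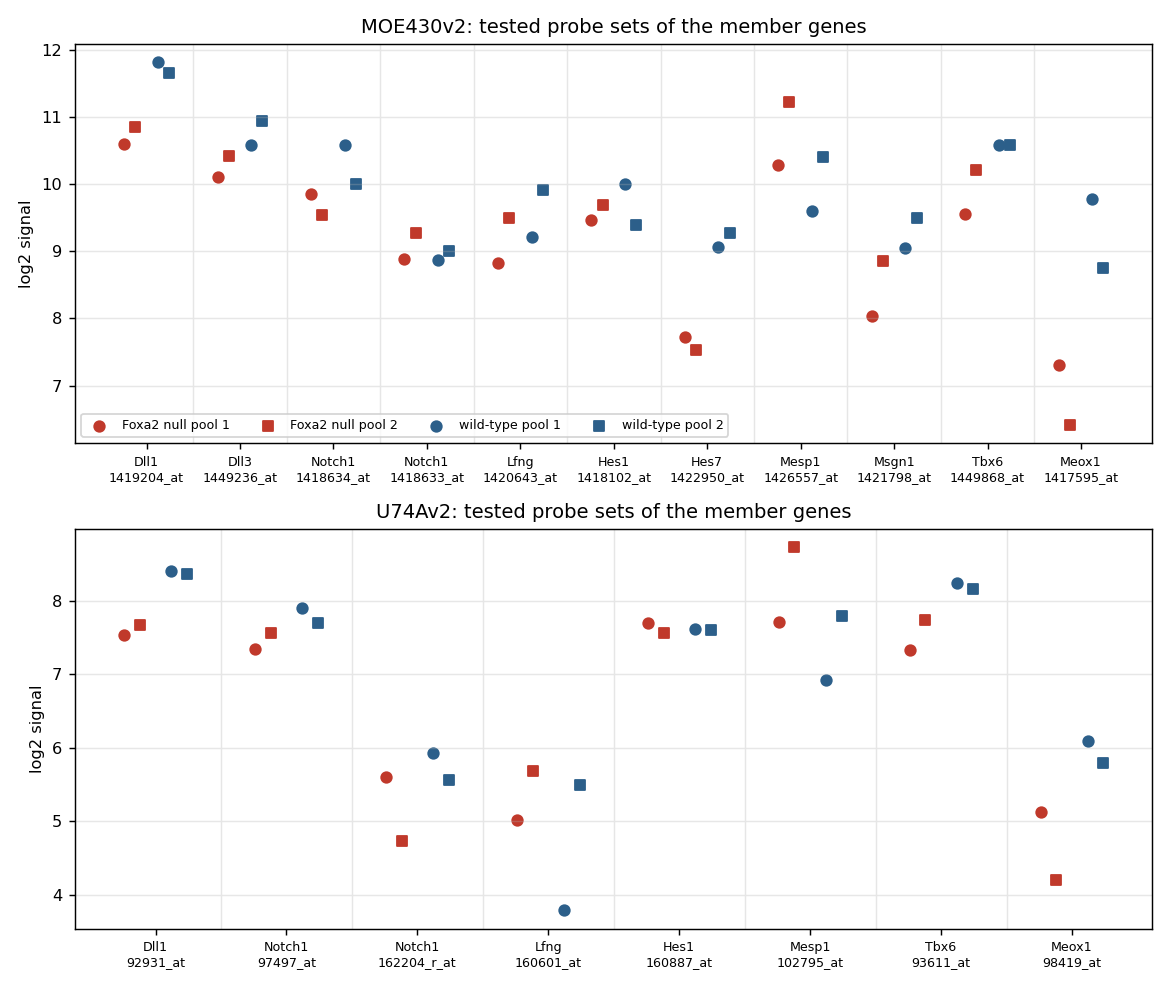
Log2 signal (vertical axis) of each tested member probe set (horizontal axis) in the Foxa2 null pools (red) and the wild-type pools (blue), circles for pool 1 and squares for pool 2, on MOE430v2 (upper panel) and U74Av2 (lower panel). Dll1, Tbx6 and Meox1 show both Foxa2 null pools below both wild-type pools on each array type, and Mesp1 and Lfng show pool 2 above pool 1 in each genotype.

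The pools of 1 genotype also differed from each other, and for several members by as much as the genotypes did. On MOE430v2 Mesp1 was 0.93 lower in pool 1 than in pool 2 of the Foxa2 null embryos and 0.80 lower in pool 1 than in pool 2 of the wild type. Lfng had pool differences (pool 1 minus pool 2) of -0.65 in the Foxa2 null and -0.69 in the wild type, and Msgn1 of -0.82 and -0.44. Meox1 went the other way, at 0.89 in the Foxa2 null and 1.03 in the wild type. Hes7 and Dll1 had small pool differences of opposite sign, at 0.19 and -0.25 in the Foxa2 null and -0.21 and 0.16 in the wild type. The sign was shared between genotypes for 8 of the 11 tested member probe sets on MOE430v2, where it was for 55% of all probe sets tested, and for 5 of 8 on U74Av2, again against 55%. The median size of the pool difference over the 11 was 0.40 in the Foxa2 null and 0.44 in the wild type, against 0.26 and 0.27 over all probe sets. The part of the younger staging of wild-type pool 2 in these values and in the differences between genotypes was not tested.

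**Figure D3:**
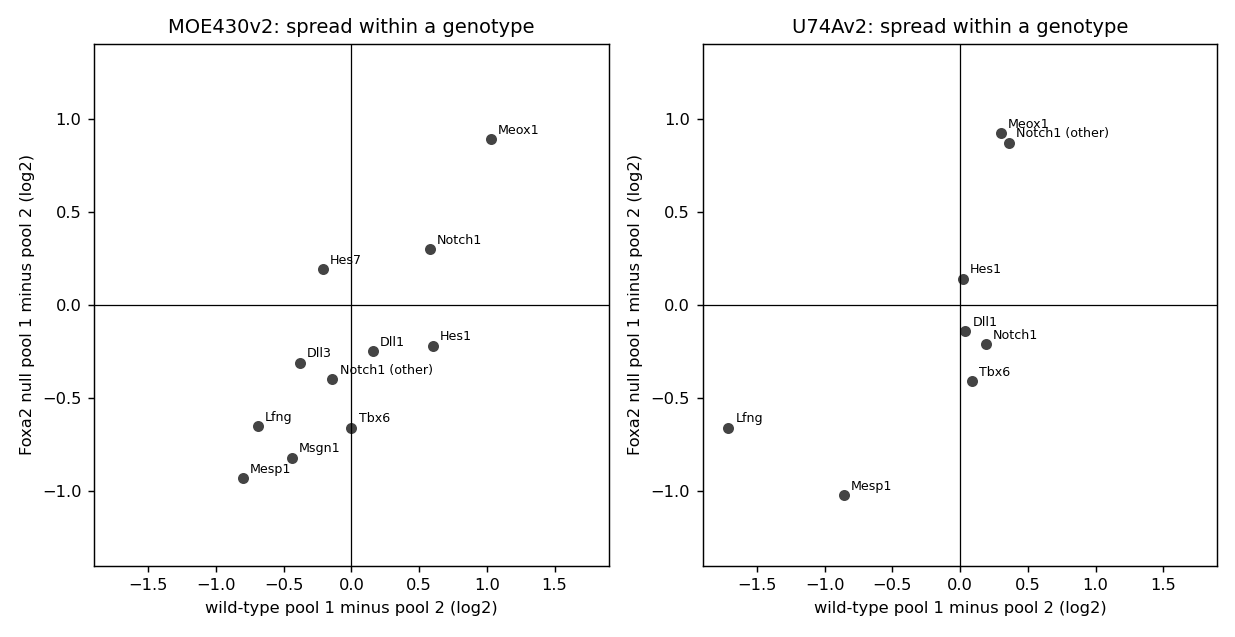
Pool 1 minus pool 2 in the Foxa2 null (vertical axis, log2) against pool 1 minus pool 2 in the wild type (horizontal axis, log2) for the tested member probe sets on MOE430v2 (left) and U74Av2 (right); "other" marks a dimmer probe set of the same gene. On MOE430v2 Mesp1 lies lowest, at -0.93 and -0.80, Meox1 lies in the opposite corner, and Hes7 and Dll1 lie near the centre.

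Averaging each extract over its U74Av2 and MOE430v2 array, after centring each gene within an array type, gave 7 member genes among 5933 genes tested. The brightest tested probe set stood for a gene on each array type. For Notch1 this left out the MOE430v2 probe set at 0.14 and the U74Av2 probe set at -0.58. Dll1 fell by 0.90 on the log2 scale (standard error 0.13, adjusted p = 0.0112 by limma) and Meox1 fell by 1.85 (standard error 0.34, adjusted p = 0.03). Thus 2 of the 7 were lower at the threshold, against 1.06% of all genes tested, and 0 were higher (1.35%). Both stand in the study's list of reduced probe sets from the U74Av2 arrays used here, so this share is not independent evidence. Below 0 lay 5 of the 7 (51.7% of all). Tbx6 was at -0.68 (adjusted p = 0.0819), Notch1 at -0.47 (0.175), Mesp1 at 0.81 (0.245), Lfng at 0.16 (0.885) and Hes1 at -0.05 (0.907). Dll1 kept its call as each pool was left out and lost it without the intensity trend (0.145). Meox1 lost its call without wild-type pool 1 (0.108), after median centring (0.0653) and without the intensity trend (0.177). With the lowest 50% of probe sets left out Tbx6 passed at -0.68 (0.0276), and with Foxa2 null pool 2 left out Tbx6 was at -0.95. Mesp1 was at 1.30 with Foxa2 null pool 1 left out and at 0.32 with Foxa2 null pool 2 left out. Fits on 1 Foxa2 null pool hold no spread between Foxa2 null pools. In them limma draws the variance of each gene toward a trend over all genes, so only the differences are given. Over all genes 63 were lower and 80 higher, and 24 and 9 after median centring.

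Of the other receptors and ligands of the pathway, 0 of 8 passed the threshold on MOE430v2 by limma, and 2 were lower at an unadjusted p under 0.05, against 6.07% of all probe sets. Jag1, a ligand of the Jagged class, was at 10.05 and 9.69 in the Foxa2 null pools, against 10.71 and 10.33 in the wild-type pools, a difference of -0.65 (standard error 0.18, adjusted p = 0.202). The receptor Notch2 was at 10.93 and 10.77 in the Foxa2 null pools, against 11.70 and 11.05 in the wild-type pools (difference -0.52, standard error 0.19, adjusted p = 0.334), and at -0.74 on U74Av2. Both genes thus lay lower without overlap, as 2 of the 8 did, against 21.8% of all probe sets. Another 2 of the 8 were higher without overlap (21.5% of all). Notch2 was at -0.20 on MOE430v2 and -0.28 on U74Av2 with wild-type pool 1 left out, and at -0.85 and -1.20 with wild-type pool 2 left out. Jag2 was at 0.65 on the other side (standard error 0.33, adjusted p = 0.473), and Notch3 at 0.20 on MOE430v2 and -0.37 on U74Av2. The median of the 8 was -0.12.

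Among 8 other Hes, Hey and Notch feedback genes, 5 were below 0 on MOE430v2 (50.1% of all probe sets), with a median of -0.32, and 0 passed the threshold by limma. At an unadjusted p under 0.05, 1 was lower (6.07% of all) and 1 was higher (6.03%). Hey1, a Notch target repressor, was at 8.12 and 7.53 in the Foxa2 null pools, against 8.51 and 8.77 in the wild-type pools (difference -0.82, standard error 0.28, adjusted p = 0.297). The groups did not overlap. Nrarp, a feedback inhibitor that Notch itself turns on, was at -0.39 (adjusted p = 0.502), Hes5, a target of the neural lineage, at -0.87 with a standard error of 0.56, and Hes3 at 0.68 (adjusted p = 0.411). Of the 33 genes for processing, glycosylation and nuclear action of Notch, 28 were tested, 19 were below 0 (50.1% of all), the median was -0.16, and 0 passed. At an unadjusted p under 0.05, 3 were lower (6.07% of all) and 2 higher (6.03%). Rbpj was at 10.48 and 10.67 in the Foxa2 null pools, against 10.56 and 10.51 in the wild-type pools, with overlap and a difference of 0.04 (standard error 0.14). Those with the lowest p were the acetyltransferase Ep300 at -0.87 (adjusted p = 0.104), the corepressor Spen at 0.85 (0.168) and Numbl, of the Numb family of Notch inhibitors, at 0.68 (0.251).

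Of 18 other genes of paraxial mesoderm and somites, 14 were tested on MOE430v2, 11 were below 0 (50.1% of all; median -0.59) and 2 fell by limma, Tcf15 and Aldh1a2, against 0.244% of all probe sets lower. Tcf15, a helix-loop-helix factor of epithelial somites also called paraxis, was at 8.11 and 7.68 in the Foxa2 null pools, against 9.30 and 9.95 in the wild-type pools. The groups lay far apart, with a difference of -1.73 (standard error 0.27, adjusted p = 0.0371). On U74Av2 Tcf15 was at -0.57 (standard error 0.24, adjusted p = 0.473). Aldh1a2, which makes retinoic acid in paraxial mesoderm, fell by 1.22 (standard error 0.17, adjusted p = 0.0231) and stands in the study's own list of reduced genes. Tcf15 no longer passed with wild-type pool 1 (0.0506) or pool 2 (0.194) left out, with quantile normalization (0.0504), with no filter (0.11) or without the trend (0.455). Aldh1a2 no longer passed with wild-type pool 1 (0.097) or pool 2 (0.131) left out, with no filter (0.0735) or without the trend (0.455).

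Mesp2, the neighbour and relative of Mesp1 that acts at the somite boundary, was at 8.01 and 8.84 in the Foxa2 null pools, against 7.74 and 7.5 in the wild-type pools. Both Foxa2 null pools were higher, with a difference of 0.80 (standard error 0.33, adjusted p = 0.382 by limma), and of 0.58 on U74Av2. On MOE430v2 it ranged between 0.38, with Foxa2 null pool 2 left out, and 1.22, with Foxa2 null pool 1 left out. On U74Av2 it ranged between 0.14, with wild-type pool 1 left out, and 1.02, with wild-type pool 2 left out. Pcdh8, a protocadherin of the presomitic mesoderm, was at -0.53 (standard error 0.21, adjusted p = 0.356), and Hoxb1 at -0.54 (standard error 0.18, adjusted p = 0.29) on MOE430v2 and 0.08 on U74Av2.

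Of 22 genes of the streak with Wnt and Fgf signals upstream of the presomitic mesoderm, 21 were tested on MOE430v2. There 14 were below 0 (50.1% of all probe sets), the median was -0.31, and 9 were lower at an unadjusted p under 0.05 (6.07% of all). Of them 1 fell (0.244% of all), Cdx1, a homeobox factor that answers to Wnt and retinoic acid, at -2.08 (standard error 0.26, adjusted p = 0.0151 by limma). Cdx1 no longer passed with wild-type pool 1 (0.0788) or pool 2 (0.0698) left out, with no filter (0.0575) or without the trend (0.449). Cdx1 and Nkx1-2 stand in the study's own list of reduced genes, drawn from the U74Av2 arrays of these samples. Nkx1-2, a homeobox factor of the streak and caudal epiblast, was at -0.86 (adjusted p = 0.0548). Wnt3a, the Wnt ligand that drives the segmentation clock and Tbx6, was at 8.92 and 9.06 in the Foxa2 null pools, against 9.57 and 9.37 in the wild-type pools. Its difference was -0.48 (standard error 0.19, adjusted p = 0.349). On U74Av2 it was -1.04 (standard error 0.27, adjusted p = 0.197), and the groups overlapped on neither array type. The study counts Wnt3a among its reduced streak genes, and found it lower by quantitative PCR on a further pool of each genotype. Fgf8, the Fgf ligand of the streak, was at 8.31 and 9.08 in the Foxa2 null pools, against 8.41 and 8.60 in the wild-type pools, with overlap and a difference of 0.19 (standard error 0.28). It was at -0.69 on U74Av2 (standard error 0.52).

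**Figure D4:**
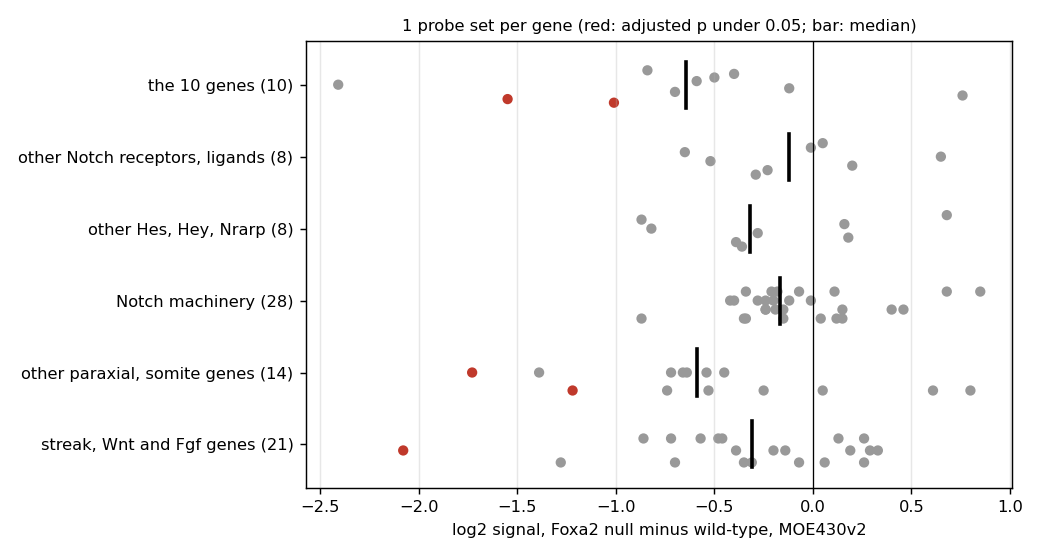
Log2 difference, Foxa2 null minus wild-type, on MOE430v2 (horizontal axis) for the 10 genes and 5 related lists (vertical axis, number of genes tested in brackets), 1 probe set per gene, red where the adjusted p by limma was under 0.05 and a black bar at the median. The median of the 10 genes lies at -0.65 and that of the other paraxial and somite genes at -0.59, while the Notch machinery centres on -0.16.

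The genes whose pattern over the 4 pools lay nearest to the mean pattern of the 10 genes were sought among 14170 other genes on MOE430v2, by the root mean square difference of centred log2 values. The mean member was at -0.49 and -0.24 in the Foxa2 null pools and at 0.36 and 0.38 in the wild-type pools. The nearest were Hmgn3 (0.029), Tpbg (0.03), Zdhhc15 (0.033), Rspo3 (0.034) and 4933406K04Rik (0.035). Rspo3, a secreted enhancer of Wnt signalling, was at 9.10 and 9.31 in the Foxa2 null pools, against 9.86 and 9.95 in the wild-type pools, a difference of -0.70 (standard error 0.17, adjusted p = 0.143 by limma). Among the members themselves Tbx6 (0.149) and Dll1 (0.151) lay nearest to that mean, and Mesp1 (0.835) and Meox1 (0.998) farthest. With 4 pools, many genes share such a pattern, and the distances are a description.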

How the data were processed

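The authors deposited linear MAS5 signals, which are intensity values summarised by probe set and scaled to 1 target on each array (trimmed mean 150.1 on U74Av2 and 500 on MOE430v2, with 2% trimmed at each end). Present calls and probe-level values were not analysed here. In R 4.3.3 with limma 3.58.1, signals were taken to log2 with a floor of 0.1 (4 U74Av2 values lay below it). U74Av2 was used as scaled, and MOE430v2 was normalized by cyclic loess. Control probe sets (66 and 64) and the dimmest 30% of probe sets, by mean log2 signal, were left out, leaving 8695 and 31526 for testing. Foxa2 null minus wild-type was tested on each platform by limma with a trend of variance on intensity. Tests were two-sided, and p-values were adjusted by Benjamini-Hochberg over all probe sets tested. Known fold changes in simulated signals were used to test the code. With 2 pools on each side, the smallest p of an exact permutation test is 0.333. P-values rest on the spread between pools after limma has drawn it toward a trend over all probe sets. Precision is limited by having so few arrays.

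Probe sets were named from the platform annotation, those with several genes staying unnamed. No probe set there carries the symbol T, a gene of the streak and nascent mesoderm lists, which is not analysed here. The members, the lists and the motifs were chosen with earlier results of these data known. Named were all member probe sets, all list genes past the threshold, and up to 3 genes per Notch, paraxial or streak list by p on MOE430v2. Wnt3a, Fgf8, Mesp2, Pcdh8, Notch2, Notch3, Jag1, Rbpj, Nrarp and Hes5 were named whatever their values. Of the node and notochord markers 3 passed on MOE430v2 (0.244% of all probe sets lower). They were Car3 at -1.56 (adjusted p = 0.0138 by limma), Cthrc1 at -1.45 (0.0179) and Foxa1 at -1.54 (0.0341). Hesx1, an anterior neuroectoderm marker, passed there at -1.66 (0.0457). The study reported each of these genes as reduced on these samples. Eomes, Lhx1, Evx1, Mixl1 and Afp were named after their values were seen. Of the marker lists for other cells, those for extra-embryonic ectoderm, endothelium, primitive blood and anterior neuroectoderm had median log2 differences on MOE430v2 of 0.10, 0.08, 0.38 and -0.71. The alternatives were other normalizations, an offset of 16, other filters, no trend, a block for the pool number and each pool left out.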

Additional observations from a re-analysis of the deposited data

How the results depend on the processing

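Calls depended on the variance model, the filter and single pools, while the differences of Dll1, Hes7, Tbx6, Msgn1, Meox1 and Mesp1 kept their sign under every alternative tried. Without the intensity trend 0 probe sets were called on U74Av2 (786 at an unadjusted p under 0.05) and 0 on MOE430v2 (3068), 2 genes over both platforms, and 0 members on MOE430v2 or over both. With no filter on dim probe sets 3 and 43 probe sets and 83 genes over both platforms were called, and 0 members on MOE430v2, against 24, 137, 143 and 2 in the main analysis. With the lowest 50% left out 38 and 324 probe sets were called. After median centring 33 genes were called over both platforms, 1 of them a member. Leaving out each pool in turn gave 15 to 38 probe sets on U74Av2, 32 to 239 on MOE430v2, 55 to 274 genes over both platforms, 0 to 4 members on MOE430v2 and 1 to 3 over both. The cause of these shifts was not tested.

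With the pool number as a replicate block, 292 and 1643 probe sets and 502 genes were called, among them 3, 7 and 4 members that were lower, and Mesp1 was higher on each (adjusted p = 0.00973 on U74Av2, 0.000385 on MOE430v2 and 0.000197 over both). Equal pool numbers share no stated origin, and deviations of equal numbers correlated at 0.111 on U74Av2 and 0.0851 on MOE430v2 across probe sets, so these are not paired samples by the labels.

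Signs turned in 7 values of members and 9 of other named genes, all near 0 or widely spread, as a pool was left out. The ranges were -0.05 to 0.09 (U74Av2), -0.42 to 0.18 (MOE430v2) and -0.20 to 0.10 (both) for Hes1, -0.14 to 1.57 (U74Av2) and -0.44 to 0.76 (both) for Lfng, and -0.06 to 0.34 for the dimmer MOE430v2 probe set of Notch1. For Fgf8 they were -1.51 to 0.13, -0.19 to 0.57 and -0.85 to 0.35, for Rbpj 0.00 to 0.40, -0.06 to 0.14 and -0.03 to 0.27, and for Hoxb1 on U74Av2 -0.08 to 0.23.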
